A study of Mus musculus with 10 samples.

Results

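Messenger RNA of 10 genes was followed in mouse bone marrow colonies: Abl1, Bcr, Gab2, Crkl, Cbl, Grb2, Sos1, Shc1, Dok1 and Dok2. Abl1 and Bcr are the 2 partner genes of the BCR-ABL fusion, and the others encode adaptors and related proteins of its signalling. Every non-control probe whose annotated transcript belongs to one of these genes was taken, which gave 15 of the 56605 probes on the array and 10 of the 22011 genes tested. Of these 22011, 13000 have a gene symbol, and the others are annotated names without a match, each counted as a gene. Shares over all genes below are over all 22011. All 15 probes passed the filter on dim probes, so no gene was lost. Abl1, Bcr, Crkl, Cbl and Shc1 had 2 probes each, and the brighter one stood for the gene. The rule that names them uses no measured value, but these genes and the pathway lists below were chosen with earlier results of these data known.

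The cells were BCR-ABL+ colonies grown from bone marrow of 6-week-old donor mice, after retroviral transduction and 10 days in methylcellulose without growth factors. The donors' genotypes were Cdk6-K43M, a CDK6 protein without kinase activity (4 samples), Cdk6-/-, without CDK6 (4 samples), and Cdk6+/+, the wild type (1 pool of 4 samples). All groups share the oncogene, the retroviral transduction and the culture. On 8 2-colour Agilent arrays, 1 for each mutant sample, Cy5-labelled mutant RNA met the Cy3-labelled wild-type pool, and on 2 more arrays, 1 per genotype, a pool of the 4 mutant RNAs was read with the dyes exchanged. RNA came from picked colonies, and the labels give no number of colonies or mice per sample, so p-values measure the spread between these samples, which may be partly technical.

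BCR-ABL is a tyrosine kinase made by the fusion of BCR to ABL1, and it drives chronic myeloid leukaemia and a form of B-cell acute lymphoblastic leukaemia. GRB2 binds a phosphorylated tyrosine in the BCR portion and brings in SOS1, which loads RAS, and GAB2, which recruits PI3 kinase and the phosphatase SHP2. CRKL, SHC1 and CBL are among the proteins phosphorylated in BCR-ABL cells, and DOK1 and DOK2 are substrates that hold back RAS signalling. These steps run on proteins and phosphorylation, whereas the arrays measured messenger RNA alone.

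Probes well above background made up 46.8 to 49.9% of the array in the mutant channels and 45.8 to 50% in the wild-type channels, and precision is limited by how many arrays there are. The chosen probe of each of the 10 genes passed this limit on all 10 arrays, in both channels. The Cdk6 probe read a log2 change of 0.35 in Cdk6-K43M and of -0.41 in Cdk6-/- colonies, both over wild type (adjusted p = 0.031 and 0.0368), and the Cdk6-/- samples ranged up to 0.0024. Whether this probe lies in the deleted part is not given in the files, so it is a limited check of the labels. All 18 B-lineage markers were above background on all 8 single-sample arrays. Of these, 5 were higher and 5 lower in Cdk6-K43M than in wild type, with log2 changes of the 18 between -2.67 and 1.14, and 1 was higher and 0 lower in Cdk6-/-. Their median log2 ratio ran between -0.18 and 0.22 across the Cdk6-K43M samples and between 0.0037 and 0.30 across the Cdk6-/- samples. Of the 21 granulocyte, monocyte and macrophage markers, 10 were above background on all 8, and Ltf and Prtn3 on no channel. Of the 17 such markers tested, 7 were lower in each mutant genotype than in the wild-type pool and none was higher. Their median log2 ratio over wild type ran between -0.74 and -0.03 across the Cdk6-K43M samples and between -1.09 and -0.50 across the Cdk6-/- samples. The lower ones were S100a8, S100a9, Ngp, Camp, Lcn2, Mpo and Ly86 in both genotypes. S100a9, a granulocyte protein, was the lowest, with log2 changes of -3.94 in Cdk6-K43M and -4.16 in Cdk6-/- (adjusted p = 3.00e-07 and 2.39e-07). Lyz2, Csf1r, Cd14, Fcgr3, Adgre1, Cd68 and Mpeg1 did not pass in either genotype. Their changes lay between -0.14 and 0.40 in Cdk6-K43M and between -1.48 and -0.47 in Cdk6-/-. The part of these marker differences in the results below was not tested. In such colonies fewer cells of a type and less RNA per cell cannot be told apart.

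Of the genes that passed the test in Cdk6-K43M, 3 have a listed RefSeq transcript start (GRCm38.p6) within 300 bases of the gene's outer end, a limit set after the positions were seen: the 2 lower genes Crkl and Cbl, and the higher gene Sos1. Their promoters, from 250 bases before to 50 after the start, are shown to let sequences of genes with opposite changes be compared. Capitals mark matches to the CCAAT box (CCAAT) or the GC box (GGGCGG) on either strand. The windows are chr16:17451735-17452034 (plus strand) for Crkl, chr9:44233997-44234296 (minus strand) for Cbl and chr17:80480404-80480703 (minus strand) for Sos1.
Crkl: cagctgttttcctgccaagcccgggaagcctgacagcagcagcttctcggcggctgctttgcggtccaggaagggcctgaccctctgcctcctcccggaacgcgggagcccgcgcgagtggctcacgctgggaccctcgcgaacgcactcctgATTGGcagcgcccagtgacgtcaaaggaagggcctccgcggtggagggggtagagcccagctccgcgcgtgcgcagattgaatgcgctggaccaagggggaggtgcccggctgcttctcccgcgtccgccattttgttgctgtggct
Cbl: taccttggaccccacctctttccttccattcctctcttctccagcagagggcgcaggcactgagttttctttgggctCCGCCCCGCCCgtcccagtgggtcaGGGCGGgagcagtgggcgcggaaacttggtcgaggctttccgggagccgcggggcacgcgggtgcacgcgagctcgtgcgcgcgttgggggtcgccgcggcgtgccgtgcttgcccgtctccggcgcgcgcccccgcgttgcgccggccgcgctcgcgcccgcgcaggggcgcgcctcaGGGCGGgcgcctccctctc
Sos1: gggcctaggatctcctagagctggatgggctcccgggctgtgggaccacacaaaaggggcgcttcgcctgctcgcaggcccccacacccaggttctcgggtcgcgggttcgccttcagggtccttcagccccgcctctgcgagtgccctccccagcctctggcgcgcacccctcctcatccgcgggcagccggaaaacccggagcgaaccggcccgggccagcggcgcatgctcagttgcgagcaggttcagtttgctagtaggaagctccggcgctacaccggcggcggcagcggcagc

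The Crkl window held 1 CCAAT box, the Cbl window held 4 GC boxes, of which a neighbouring pair shares a base, and the Sos1 window held neither. A GC box was present in 35.7% and a CCAAT box in 37.4% of all 32851 promoter windows of this length. The STAT motif TTCNNNGAA, found in 8.3% of all windows, matched in none of the 3, and no 2 different motifs overlapped. The share of G and C was 67.3% for Crkl, 74% for Cbl and 70% for Sos1, against a median of 52.7% over all windows. Matches of letters describe these windows and say nothing of factors bound there.

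In Cdk6-K43M colonies, 6 of the 10 genes differed from wild type: Dok2, Gab2 and Sos1 were higher, and Cbl, Grb2 and Crkl were lower. Over all genes, 20.1% passed the same test (limma, Benjamini-Hochberg over 22011 genes, adjusted p under 0.05), 9.79% as higher and 10.3% as lower. In Cdk6-/- colonies, 1 of the 10 genes, Dok2, passed, against 7.24% of all genes (3.38% higher and 3.85% lower). None of the 10 genes passed between Cdk6-K43M and Cdk6-/-, where 0.513% of all genes did (0.264% higher and 0.25% lower), and Sos1 was the one with an unadjusted p under 0.05. Both comparisons with wild type use the same pool, which enters as 1 control without spread of its own. With standard errors widened for the spread such a pool would carry, none of these calls held: the adjusted p ran between 0.0637 and 0.188 for the 6 genes in Cdk6-K43M and was 0.262 for Dok2 in Cdk6-/-.

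**Figure D1:**
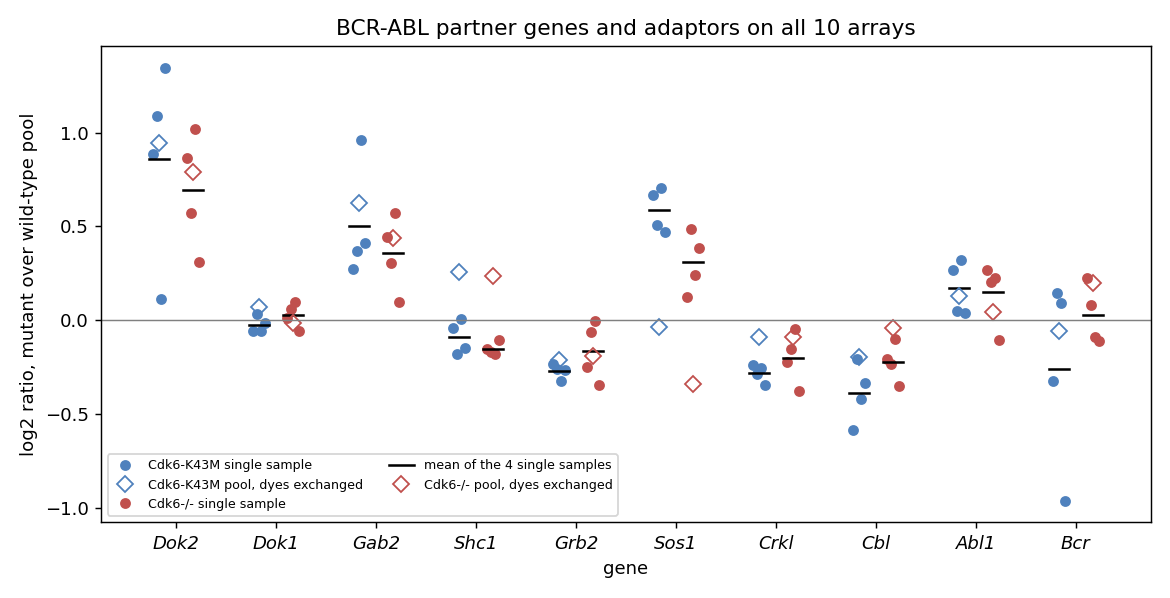
Log2 ratio of mutant over wild-type pool (vertical axis) for each of the 10 genes (horizontal axis) on all 10 arrays. Filled circles are single samples, bars their mean (n = 4), and open diamonds the pooled RNA with the dyes exchanged, with Cdk6-K43M left of Cdk6-/- in each pair. Dok2 and Gab2 lie above 0 on every array, Crkl, Cbl and Grb2 below 0 on every array, and the diamonds of Sos1 and Shc1 lie on the other side of 0 from most of their circles.

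Abl1 encodes the tyrosine kinase that the fusion activates. Its log2 ratios over wild type were 0.27, 0.05, 0.32 and 0.04 in the Cdk6-K43M samples 1 to 4, with 0.13 for their pool. In the Cdk6-/- samples 1 to 4 they were 0.27, 0.20, 0.23 and -0.10, with 0.04 for their pool. The groups overlapped, and Cdk6-/- sample 4 lay below the other 3. The fitted log2 change was 0.14 (95% interval -0.02 to 0.30) in Cdk6-K43M and 0.11 (-0.06 to 0.27) in Cdk6-/-, and neither passed (adjusted p = 0.218 and 0.404). The other Abl1 probe, above background on 6 of 10 arrays in the mutant channel, gave 0.14 and -0.06.

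Bcr encodes the partner that supplies the oligomerization domain of the fusion. Its ratios were -0.32, 0.14, 0.09 and -0.96 in the Cdk6-K43M samples, with -0.06 for their pool. The Cdk6-/- samples read 0.23, 0.08, -0.09 and -0.11, with 0.20 for their pool. Cdk6-K43M sample 4 stood lowest, and it did so on the other Bcr probe too, at -0.60 against -0.03, -0.09 and 0.23 in samples 1 to 3. The fitted change was -0.17 (-0.51 to 0.18) in Cdk6-K43M and 0.12 (-0.22 to 0.46) in Cdk6-/-, neither past the threshold. Without Cdk6-K43M sample 4 the first of these was -0.02. Whether the probes of Abl1 and Bcr also read the retroviral fusion transcript was not tested, because probe positions were not used here, so mouse genes and transgene cannot be told apart in these values.

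Among the adaptors that bind at the BCR portion, Grb2 was lower in Cdk6-K43M by a small and even amount. Its ratios were -0.23, -0.26, -0.32 and -0.27 in the Cdk6-K43M samples, with -0.21 for their pool. In the Cdk6-/- samples they were -0.25, -0.06, -0.0028 and -0.35, with -0.19 for their pool. All 10 values were below 0, and the Cdk6-K43M samples, with an SD of 0.0381 around a mean of -0.27, lay inside the range of the Cdk6-/- samples (mean -0.17, SD 0.160, n = 4 each). The fitted log2 change was -0.25 (SE 0.0600, adjusted p = 0.0151) in Cdk6-K43M and -0.17 (adjusted p = 0.122) in Cdk6-/-, and in Cdk6-K43M the RNA fell by 16.2%. Between Cdk6-K43M and Cdk6-/- the difference was -0.11 (-0.31 to 0.10).

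Sos1 encodes the exchange factor that GRB2 carries to RAS. Its ratios were 0.67, 0.51, 0.71 and 0.47 in the Cdk6-K43M samples and 0.12, 0.49, 0.24 and 0.39 in the Cdk6-/- samples. With the dyes exchanged, the pools read -0.04 for Cdk6-K43M and -0.34 for Cdk6-/-. All 8 single samples were above 0 and both pools below it, so the reading moved with the dye. The dye term (Cy5 over Cy3) was 0.32 on the log2 scale (SE 0.0524, adjusted p = 0.00607), larger in size than that of 98.1% of genes. The fit with this term gave 0.27 (SE 0.0671, adjusted p = 0.0182) in Cdk6-K43M and -0.01 (-0.16 to 0.14) in Cdk6-/-. Without the exchanged arrays and the dye term these were 0.59 and 0.31, and Sos1 also passed in Cdk6-/- (adjusted p = 0.0224). The dye cancels between Cdk6-K43M and Cdk6-/-, where Sos1 differed by 0.28 (0.05 to 0.51, unadjusted p = 0.0214, adjusted p = 0.273), and the samples overlapped. This difference was 0.55, 0.18 and 0.22 within the 3 slides.

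Shc1 encodes an adaptor that links tyrosine kinases to GRB2. Its single samples ran between -0.18 and 0.01 in Cdk6-K43M and between -0.18 and -0.10 in Cdk6-/-, while the pools with the dyes exchanged read 0.26 and 0.23. Here too the reading moved with the dye, in the other direction (dye term -0.18, SE 0.0364, adjusted p = 0.0157). The fitted change was 0.09 (-0.02 to 0.19) in Cdk6-K43M and 0.03 (-0.07 to 0.14) in Cdk6-/-. The other Shc1 probe gave -0.09 and -0.20, so the probes differed in sign, and none of these values passed.

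Gab2 encodes the scaffold that joins GRB2 to PI3 kinase and SHP2, and it is required for transformation of mouse myeloid progenitors by BCR-ABL. It was 1.47-fold higher in Cdk6-K43M than in wild type. Its log2 ratios were 0.27, 0.37, 0.96 and 0.41 in the Cdk6-K43M samples, with 0.62 for their pool. The Cdk6-/- samples read 0.45, 0.31, 0.57 and 0.10, with 0.44 for their pool. All 10 values were above 0, and Cdk6-K43M sample 3 was the highest. The fitted change was 0.56 (SE 0.110, adjusted p = 0.00682) in Cdk6-K43M and 0.40 (0.16 to 0.65, adjusted p = 0.0564) in Cdk6-/-. Gab2 passed in Cdk6-/- without Cdk6-/- sample 4 (0.46, adjusted p = 0.0484) and without Cdk6-K43M sample 3 (0.42, adjusted p = 0.0177), which changes the shared estimate of the spread. Between Cdk6-K43M and Cdk6-/- the difference was 0.15 (-0.22 to 0.52).

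Crkl encodes an SH2-SH3 adaptor that is a major phosphorylated protein of BCR-ABL cells. Its ratios were -0.24, -0.29, -0.26 and -0.35 in the Cdk6-K43M samples, with -0.09 for their pool. In the Cdk6-/- samples they were -0.23, -0.15, -0.05 and -0.38, with -0.09 for their pool. All 10 values were below 0, with Cdk6-/- sample 3 and the pools nearest to it. Crkl RNA fell by 12.9% in Cdk6-K43M, a fitted change of -0.20 (SE 0.0565, adjusted p = 0.0334), and in Cdk6-/- the fit gave -0.13 (-0.26 to -0.0068, adjusted p = 0.181). The other Crkl probe gave -0.21 in Cdk6-K43M with a wider error (SE 0.0890, adjusted p = 0.125). The Crkl call held in 10 of 18 alternatives, the fewest of the 6 genes. Besides the scaling and pool settings it was lost with the mean of both probes (adjusted p = 0.061), with the slide as a block (adjusted p = 0.0935) and without any 1 of the 4 Cdk6-K43M samples (adjusted p between 0.0559 and 0.0643).

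Cbl encodes a ubiquitin ligase that is itself phosphorylated by BCR-ABL and marks tyrosine kinases for breakdown. Its ratios were -0.59, -0.20, -0.42 and -0.34 in the Cdk6-K43M samples, with -0.20 for their pool. Cdk6-/- samples 1 to 4 gave -0.21, -0.23, -0.10 and -0.35, with -0.04 for their pool. All 10 values were below 0, and the groups overlapped. Cbl RNA fell by 18.4% in Cdk6-K43M, a fitted change of -0.29 (SE 0.0651, adjusted p = 0.0116), and in Cdk6-/- the fit gave -0.13 (-0.27 to 0.02, adjusted p = 0.246). The other Cbl probe, above background on 9 of 10 arrays in the mutant channel, gave -0.16 in Cdk6-K43M and did not pass (adjusted p = 0.23), with Cdk6-K43M sample 4 at 0.32. Between Cdk6-K43M and Cdk6-/- the difference was -0.16 (-0.39 to 0.06).

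The 3 lower genes depended on how the arrays were scaled. With each array centred on its median in place of loess, the median of all genes moved to 0.11 in Cdk6-K43M, and Grb2, Crkl and Cbl stood at -0.03, 0.0031 and -0.11, none past the threshold. Relative to that shift of all genes they were at -0.14, -0.11 and -0.22. Under this scaling Abl1 (0.35), Shc1 (0.28) and Dok1 (0.20) passed as higher in Cdk6-K43M, and Dok2 (1.08), Gab2 (0.71) and Sos1 (0.45) kept their calls. Relative to the same shift, Abl1, Shc1 and Dok1 were at 0.24, 0.17 and 0.09, and Dok2, Gab2 and Sos1 at 0.97, 0.60 and 0.33. Dok2, Gab2 and Sos1 were higher in Cdk6-K43M under all 18 alternatives, and passed in 17 of the 18.

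**Figure D2:**
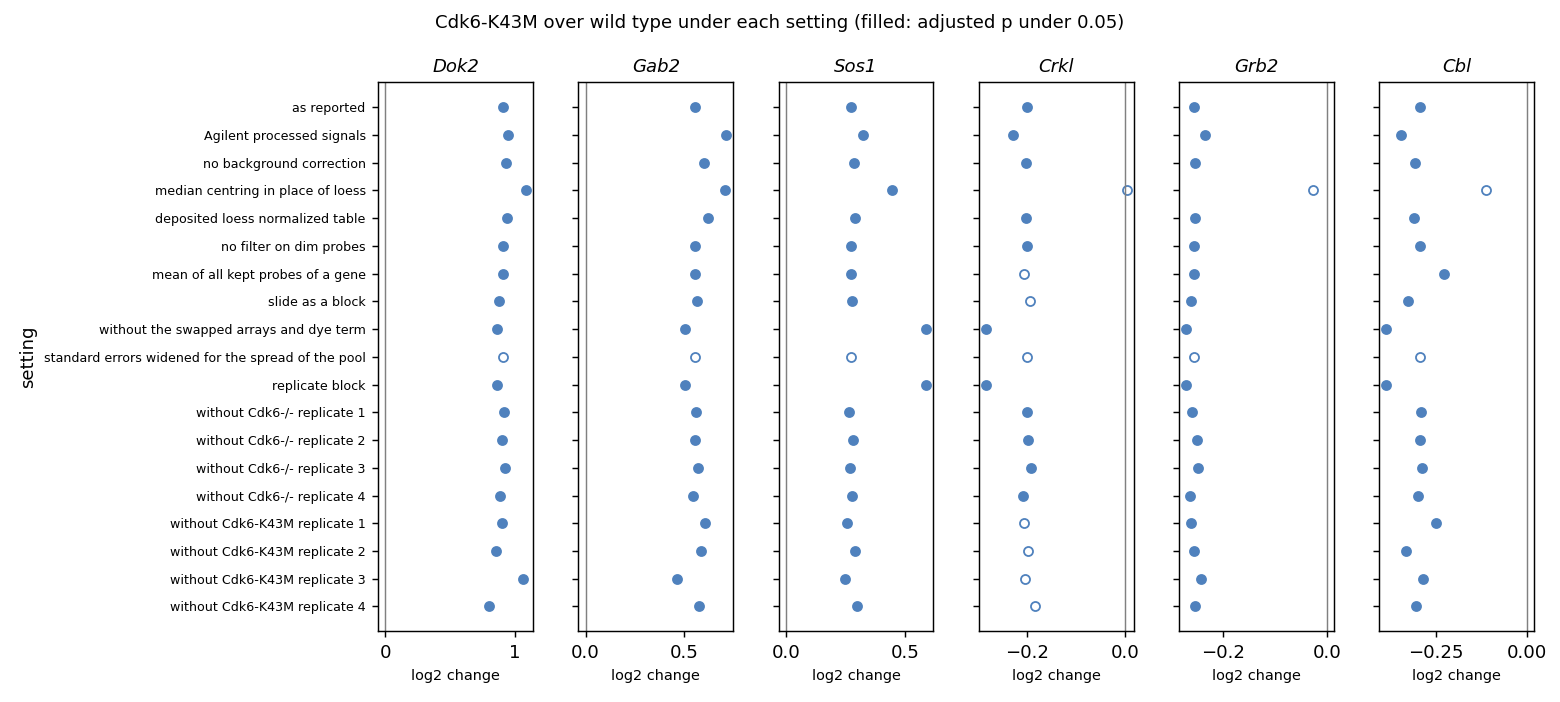
Fitted log2 change of Cdk6-K43M over wild type (horizontal axis, a scale of its own for each gene) under each setting of the analysis (vertical axis) for the 6 genes that passed. Filled circles have an adjusted p under 0.05 and open circles do not; widening the standard errors for the pool opens all 6, and median centring opens Crkl, Grb2 and Cbl.

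The inhibitory docking proteins DOK1 and DOK2 recruit RASGAP, which switches RAS off, and their genes behaved differently here. Dok2 was 1.87-fold higher in Cdk6-K43M and 1.67-fold higher in Cdk6-/- than in wild type, the largest fitted changes among the 10 genes in both comparisons. Its log2 ratios were 0.89, 1.09, 0.11 and 1.35 in the Cdk6-K43M samples, with 0.94 for their pool. In the Cdk6-/- samples they were 0.86, 0.57, 1.02 and 0.31, with 0.79 for their pool. All 10 values were above 0, and Cdk6-K43M sample 3 and Cdk6-/- sample 4 were the lowest of their groups. For Dok2 the fit gave 0.90 (SE 0.176, adjusted p = 0.00639) in Cdk6-K43M and 0.74 (SE 0.176, adjusted p = 0.0354) in Cdk6-/-. The call in Cdk6-/- was lost without Cdk6-/- sample 1, 2 or 3 (adjusted p = 0.0928, 0.0643 and 0.0657) or without Cdk6-K43M sample 1 (adjusted p = 0.0539). Dok2 is known from myeloid and T cells. Of 6 T and NK cell markers tested, 1 was higher and 1 lower in Cdk6-K43M, and 2 were higher and 1 lower in Cdk6-/-. Thy1 was higher by 2.79 in Cdk6-K43M and 2.14 in Cdk6-/-, and Cd2 was lower, at -1.32 and -1.19. Lck passed in Cdk6-/- alone (0.54). Cd3e, Cd3d and Cd4 lay between -0.14 and 0.01 and did not pass in either genotype. Cd3g, Cd8a and Ncr1 were above background on no channel. Of the 17 myeloid markers tested, 7 were lower and none higher in each genotype. The part of these markers in the Dok2 result was not tested.

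Dok1 stayed close to 0 on every array. Its ratios were -0.06, 0.03, -0.06 and -0.01 in the Cdk6-K43M samples, with 0.07 for their pool. Cdk6-/- samples 1 to 4 gave 0.01, 0.06, 0.10 and -0.06, with -0.02 for their pool. In the fit, the change was 0.0013 (-0.10 to 0.10) in Cdk6-K43M and 0.03 (-0.08 to 0.13) in Cdk6-/-. The groups overlapped, and changes within these 95% intervals were not detectable with these arrays.

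**Figure D3:**
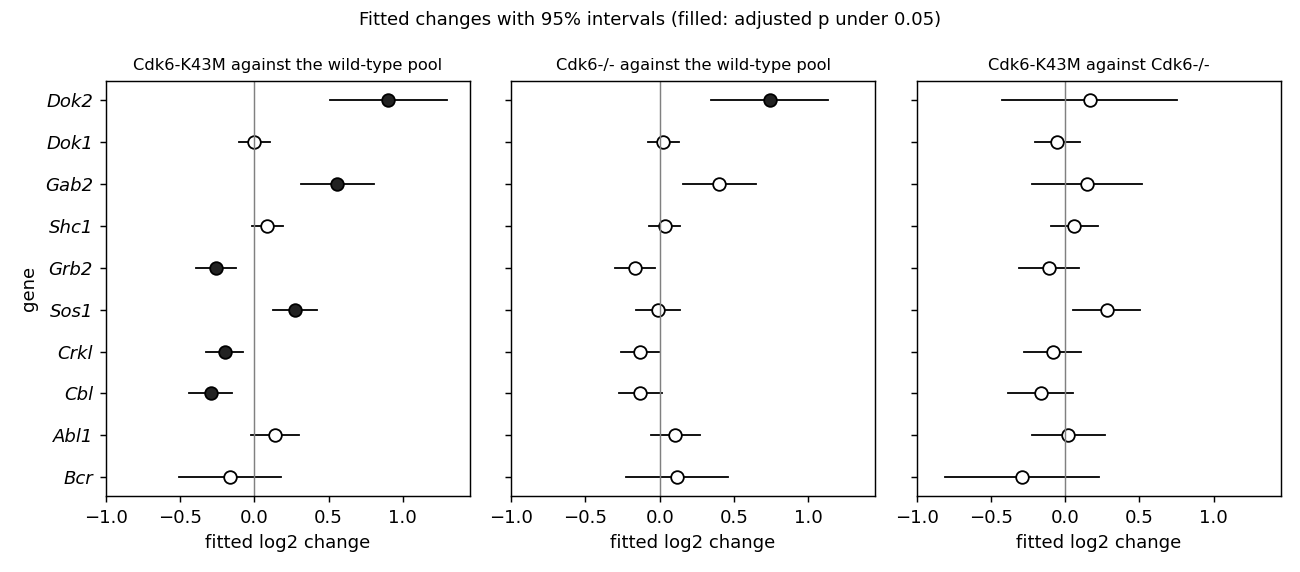
Fitted log2 change (horizontal axis, points) with its 95% interval (lines) for each of the 10 genes (vertical axis) in the 3 comparisons. Filled points have an adjusted p under 0.05: there are 6 for Cdk6-K43M over the wild-type pool, 1 for Cdk6-/- over the wild-type pool and 0 for Cdk6-K43M over Cdk6-/-.

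Across the arrays of a genotype, the direction was even for several genes. In Cdk6-K43M, 6 of the 10 genes (Abl1, Gab2, Crkl, Cbl, Grb2 and Dok2) had one sign on all 5 arrays, against 29.8% of all genes. In Cdk6-/-, 5 of the 10 did (Gab2, Crkl, Cbl, Grb2 and Dok2), against 24.4% of all genes. The pooled array of each genotype holds RNA of the same 4 samples and is no further replicate. Between Cdk6-K43M and Cdk6-/- the single samples overlapped for all 10 genes, whereas they did not overlap for 8.15% of all genes. The widest interval of this difference was that of Bcr, at -0.29 (-0.81 to 0.23), followed by Dok2, at 0.17 (-0.43 to 0.76). The median fitted change of the 10 genes was 0.04 in Cdk6-K43M (-0.01 over all genes) and 0.03 in Cdk6-/- (0.0014 over all genes).

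The genes with the ratios most like those of each changed gene were found by the root mean square difference over the 8 single-sample arrays. On all 8 the mutant was in Cy5, so these ratios include the effect of the dye. Crkl and Grb2 were each other's nearest gene with a symbol (0.0536), and Gmeb2 came next for both (0.0571 and 0.0609). For Cbl the nearest was Gabarapl2 (0.0803). For Sos1 they were Rabep1 (0.0895) and Eef2kmt (0.096). Gab2 had Insig2 (0.124) and the olfactory receptor gene Olfr1153 (0.138), and Dok2 had Npc1 (0.191) and Prmt2 (0.252). Gab2 and Dok2 thus had no gene as close as the other changed genes had. Fitted changes with the dye term were less alike for some. In Cdk6-K43M they were 0.17 for Insig2 and 0.20 for Olfr1153, against 0.56 for Gab2. Rabep1 and Eef2kmt had 0.46 and 0.50, against 0.27 for Sos1. Npc1 and Prmt2 had 0.87 and 0.75, against 0.90 for Dok2.

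Around the 10 genes, 6 lists of pathway genes held 81 genes, of which 71 were measured. In Cdk6-K43M, 13 were higher, 15 lower and 43 did not pass, where 20.1% of all genes passed. In Cdk6-/-, 5 were higher, 5 lower and 61 did not pass, where 7.24% of all genes passed. Between Cdk6-K43M and Cdk6-/- none of the 71 passed. All 28 genes that passed in Cdk6-K43M and all 10 in Cdk6-/- kept their sign under the 18 alternatives. With median centring, 3 of the 15 lower genes in Cdk6-K43M (Lyn, Blk and Abi1) and all 13 higher ones still passed. With standard errors widened for the pool, 13 list genes passed in Cdk6-K43M (3 paralogues, 1 RAS and ERK, 4 PI3K and AKT, 0 JAK and STAT, 2 SRC-family and phosphatase and 3 cytoskeletal genes) and 2 in Cdk6-/-.

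Paralogues of the 10 genes split in Cdk6-K43M: of 13 measured, Grap2, Sos2 and Abr were higher, Crk was lower and 9 did not pass. Grap2, a GRB2-like adaptor of T cells and platelets, had a log2 change of 1.48 (adjusted p = 0.00146), and Sos2, the other RAS exchange factor of the SOS family, one of 0.54 (adjusted p = 0.000275). Abr, a relative of Bcr, changed by 0.46 (adjusted p = 0.00425) and Crk, a relative of Crkl, by -0.35 (adjusted p = 0.022). In Cdk6-/-, Sos2 alone passed, at 0.30 (adjusted p = 0.0136). The list's median was -0.06 in Cdk6-K43M and 0.10 in Cdk6-/-.

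In the RAS and ERK pathway, 3 of 12 genes were higher and 3 lower in Cdk6-K43M, and 1 was lower in Cdk6-/-. In Cdk6-K43M, the RAS gene Hras (0.39, adjusted p = 0.01), the MEK gene Map2k1 (0.33, adjusted p = 0.0151) and Nf1, a brake on RAS (0.28, adjusted p = 0.0059), were higher. The list's median was 0.05 in Cdk6-K43M and -0.05 in Cdk6-/-.

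In the PI3K and AKT pathway, 2 of 12 measured genes were higher and 2 lower in Cdk6-K43M, and 1 each way in Cdk6-/-. Akt2, one of the AKT kinases, had a log2 change of -0.41 in Cdk6-K43M (adjusted p = 0.000699). Pdpk1, which activates AKT, was higher by 0.38 (adjusted p = 0.00265), and Rptor, a subunit of the mTOR complex, by 0.49 (adjusted p = 0.00214). In Cdk6-/-, Rptor was higher by 0.61 (adjusted p = 0.00236) and Akt2 lower at -0.24 (adjusted p = 0.0229). Of the 8 JAK and STAT genes, 1 passed in Cdk6-K43M (Stat3, -0.23, adjusted p = 0.0445) and none in Cdk6-/-. The Stat3 call held in 5 of 18 alternatives.

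Among SRC-family kinases and tyrosine phosphatases, 2 of 11 measured genes were higher and 4 lower in Cdk6-K43M, and 1 was higher and 2 lower in Cdk6-/-. Lyn, a SRC-family kinase of B and myeloid cells that BCR-ABL binds, had a log2 change of -0.98 in Cdk6-K43M (adjusted p = 0.000936) and of -0.58 in Cdk6-/- (adjusted p = 0.0288). Ptpn6, the gene of the phosphatase SHP1, changed by -0.39 and -0.63 (adjusted p = 0.00284 and 0.000772). In Cdk6-K43M, the B-cell kinase gene Blk was lower (-0.69, adjusted p = 0.0135) and the phosphatase gene Ptpn12 higher (0.52, adjusted p = 0.00983). In Cdk6-/-, Lck was higher (0.54, adjusted p = 0.0244). Lyn and Ptpn6 are also used by myeloid cells, whose markers are given above, and the part of those cells was not tested.

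Among the cytoskeletal partners of ABL, 3 of 15 measured genes were higher and 4 lower in Cdk6-K43M, and 2 were higher and 1 lower in Cdk6-/-. The ABL interactor genes Abi1 and Abi2 went opposite ways in Cdk6-K43M, at -0.66 (adjusted p = 0.000315) and 0.59 (adjusted p = 0.0158), and Abi2 was at 0.68 in Cdk6-/- (adjusted p = 0.0229). The adaptor gene Nck2 was higher by 0.68 in Cdk6-K43M (adjusted p = 0.000266) and by 0.43 in Cdk6-/- (adjusted p = 0.00849). Rac2, the blood-cell RAC GTPase, changed by -0.37 in Cdk6-K43M (adjusted p = 0.000434) and by -0.20 in Cdk6-/- (adjusted p = 0.0204). Wasf2, of the WAVE complex, changed by -0.28 in Cdk6-K43M (adjusted p = 0.00924).

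**Figure D4:**
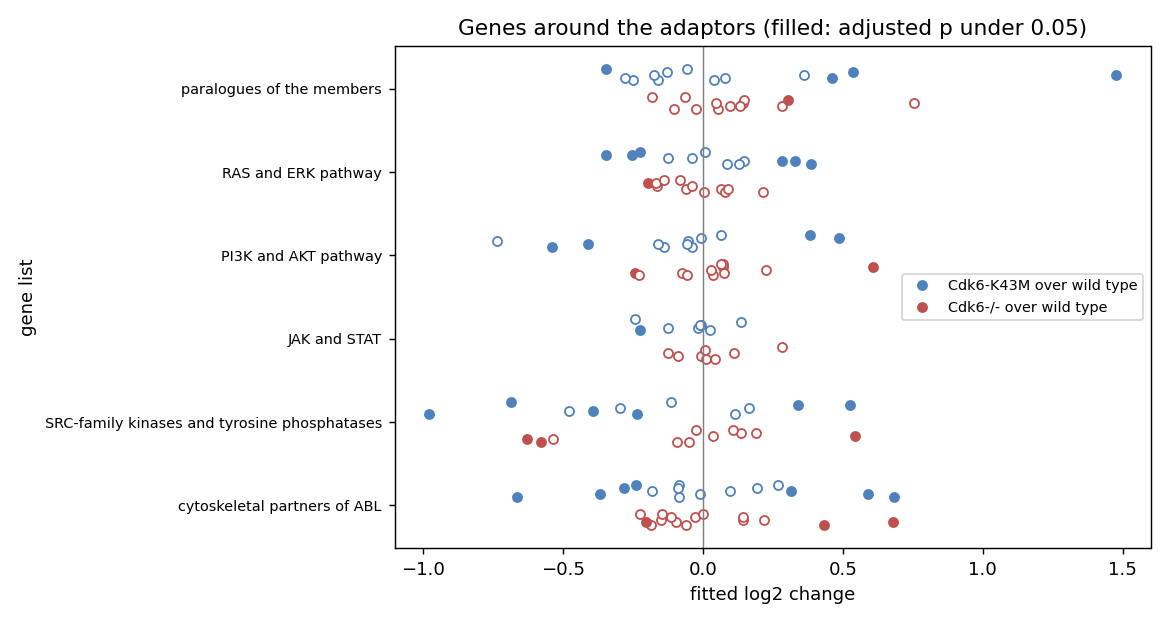
Fitted log2 change over wild type (horizontal axis) of each measured gene of the 6 pathway lists (vertical axis), with Cdk6-K43M above Cdk6-/- in each list. Filled points have an adjusted p under 0.05, and they lie on both sides of 0 in all lists but JAK and STAT for Cdk6-K43M, with Grap2 at 1.48 the farthest point.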

How the data were processed

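Per the file headers, intensity values of spots and of their local background came from Agilent Feature Extraction (version 11.5.1.1). Its processed signals, background subtracted and dye normalized per those headers, served as an alternative, as did the authors' deposited log2 values, whose name says loess, with 68 non-numeric ratios read as missing and an unstated background correction. Median intensities went through limma (version 3.58.1, with R 4.3.3 and version 1.17.8 of data.table): normexp with an offset of 50, loess within each array without control spots, and the mean of the spots of a probe. Spots found not uniform were set to missing. Transcript accessions were matched to RefSeq symbols (58.3% of 56605 probes). Probes without a symbol were grouped by their annotated name, and each such name counts as a gene. The filter asked for a signal well above background in the mutant channel of 3 or more of a genotype's 4 single-sample arrays, or in 5 or more of the 10 wild-type channels, and left 28180 probes and 22011 genes, each represented by its brightest probe.

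Comparisons with wild type used all 10 arrays, swapped arrays with reversed sign, 1 coefficient per genotype, and dye as a further term (degrees of freedom: 7 residual, 2.94 prior). Cdk6-K43M was compared with Cdk6-/- on the 8 single-sample arrays (6 residual, 2.86 prior). P-values of limma's moderated tests were adjusted over all genes (Benjamini-Hochberg). The swapped pools count RNA of the same samples a further time, so the residual spread may be underestimated. The median SE was 0.0728 against wild type and 0.106 between the genotypes. Named genes were the 10 members, Cdk6, up to 4 genes per pathway list and comparison with the smallest p, the 2 genes nearest to each changed member, and markers needed for a range. Abi2 in Cdk6-K43M and some of the markers are outside this rule and were named after their values were seen. A few further genes under this rule are left out here. The members and lists were chosen with earlier results of these data known. No label says that a replicate number pairs samples, so the numbers were not taken as pairs. Same-numbered samples of the genotypes had deviations that correlated at -0.07 to 0.23, and differently numbered ones at -0.25 to 0.20. Alternatives covered background correction, scaling, the deposited table, filter, probe rule, slide, swapped arrays, the pool's spread, the replicate number and each sample left out.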

Additional observations from a re-analysis of the deposited data

Results flagged for a closer look

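Abl1 had a log2 ratio of -0.10 over wild type in Cdk6-/- sample 4, apart from the other 3 Cdk6-/- samples, which lay between 0.20 and 0.27. The gap to the nearest sample was 0.83 of the group's range, just past Dixon's critical value. In all, 20 groups of 4 samples were examined in this way, and chance alone gives about 1 in 20.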

How the results depend on the processing

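In all, 4428 genes passed in Cdk6-K43M over wild type, 1593 in Cdk6-/- over wild type and 113 between Cdk6-K43M and Cdk6-/-. Widening the standard errors for the pool left 1271 genes in Cdk6-K43M and 130 in Cdk6-/-, and 0 of the 10 members in both. Median centring gave 802 genes in Cdk6-/-, and moved the share of higher genes among those called to 87.9% (48.7% with loess) in Cdk6-K43M, to 63.5% (46.8%) in Cdk6-/- and to 65.9% (51.3%) between them. With it, the list medians in Cdk6-K43M were 0.13 for paralogues, 0.23 for RAS and ERK, 0.15 for PI3K and AKT, 0.15 for JAK and STAT, -0.0414 for SRC-family kinases and phosphatases and 0.12 for cytoskeletal partners, while the median of all genes was 0.11. Between Cdk6-K43M and Cdk6-/- it gave 0.0669, 0.17, 0.0774, 0.0627 and 0.15 for the same lists without PI3K and AKT, and the median of the SRC list in Cdk6-/- was 0.0124. Crkl in Cdk6-K43M turned to 0.0031 with median centring. Sos1 in Cdk6-/- turned to 0.31 without the swapped arrays and dye term, a fit that called 3292 genes and 2 members in Cdk6-/-, with list medians in Cdk6-K43M of 0.0116 for RAS and ERK and -0.38 for the SRC list. The SRC median in Cdk6-K43M was -0.0874 with no filter on dim probes, and the RAS and ERK median was 0.0816 with the slide as a block, which called 822 genes in Cdk6-/- and 33 between the genotypes. Between the genotypes, Agilent's processed signals gave 73 genes and all 10 arrays with the dye term 559. With the replicate block, which shares only a number, 2748 genes passed in Cdk6-/- and 37 between the genotypes, the RAS and ERK median was 0.0116 and the SRC median -0.38 in Cdk6-K43M, Dok2 in Cdk6-/- was 0.69 (adjusted p = 0.0904) and Gab2 0.36 (adjusted p = 0.0445), and 2 of the 4 samples correlated best with their own number. Leaving out each of the 8 single samples in turn gave 0 to 2 members and 612 to 1931 genes in Cdk6-/- and 36 to 77 genes between the genotypes. The lowest Cdk6-/- count, 612, came without Cdk6-/- sample 1, and without sample 2 it was 951. For the moved values not explained above, the cause was not tested. No member passed between Cdk6-K43M and Cdk6-/- under any of 17 alternatives.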
